A study of Mus musculus with 4 samples.

Results

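Microglia identity and activation genes are the genes by which the resident macrophages of the brain are recognised and by which they respond to injury. The set described here was given as 35 mouse genes, and a gene was found by matching the RefSeq accession of a probe, without its version, to its symbol. Probes were found for 34 of the 35; Cd68, a lysosomal glycoprotein gene, matched none and is not analysed here. All 34 probes used were well above background in both channels of all 4 arrays, so no gene was lost to the filter on dim probes, which kept 30259 of 39429 probes and left 24565 features to test.

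The arrays compared the cortex on the injured side of 8-week-old C57BL/6 mice, 24 h after the left middle cerebral artery was closed for good by electrocoagulation (pMCAO), a model of stroke that all samples shared. One group was wild type, and the other was labelled Ndrg2KO, that is, knockout for Ndrg2, which encodes a cytosolic protein abundant in astrocytes. Each of the 4 two-colour arrays held 1 knockout sample in Cy3 and 1 wild-type sample of the same replicate number in Cy5, so there were 8 samples in all. The labels do not give the part of Ndrg2 that was deleted, whether the deletion was limited to a cell type, or whether RNA of several animals was pooled, and no sham or uninjured cortex is among these samples. Every value below is log2 of knockout over wild type, so a negative value means less signal in the knockout sample; a log2 ratio of -0.27 is a 1.21-fold lower signal.

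Microglia enter the brain early in life, and their survival depends on the receptor CSF1R, whose ligands are CSF1 and IL34. In the resting brain they express a set of surface receptors, among them the fractalkine receptor CX3CR1 and the ADP receptor P2RY12, under the transcription factors PU.1, IRF8 and SALL1. After injury such as ischaemia, resting genes are known to fall, and genes of phagocytosis and of the lysosome, many of them downstream of TREM2 and its adaptor TYROBP, are known to rise. Many of these genes are also expressed by monocytes and macrophages that enter from the blood, so a bulk tissue value cannot be assigned to one of these cells.

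All samples came from whole tissue, so fewer cells of a type and less RNA per cell cannot be told apart. Of 43020 non-control spots on an array, the share well above background was 73.6 to 74.9% for Cy3 (knockout) and 76.7 to 79.0% for Cy5 (wild type), with no saturated spot. The dyes were never swapped, so a dye effect of a single probe cannot be told apart from genotype. Ndrg2 itself stood at -0.22, -0.22, -0.18 and -0.11 on arrays 1 to 4 (mean -0.18 ± 0.05, SD, n = 4). This difference was small but passed as lower (limma, adjusted p = 0.0248 over all features). Whether its probe lies in the deleted part is not known, so the value is not used as a check of the genotype. The samples are therefore called knockout-labelled. Markers of neurons, astrocytes, oligodendrocytes and endothelial cells were well above background on all arrays, as cortex should give. The labels do not say that each sample is a separate animal, so p-values measure only the spread between these samples.

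Of the 34 microglial genes, 10 were lower and 3 higher in the knockout-labelled cortex (limma, adjusted p under 0.05 over all features), and 21 did not pass. By an unadjusted p under 0.05, 19 of the 34 passed, where 37.3% of all features did. The lower ones were Cx3cr1, P2ry13, Siglech, Olfml3, Trem2, Fcer1g, Ctss, Ctsb, Cst7 and Aif1, and the higher ones Il34, Ctsd and Gas6, all 3 of which turned negative, and passed as lower, when arrays were median-centred instead of loess-normalized. The 10 lower genes made up 29.4% of the 34, where 12.7% of all 24565 features were lower, and the 3 higher genes 8.82%, where 8.63% were higher. In either direction 38.2% of the set and 21.3% of all features passed. The set's median was -0.16, against -0.02 for all features, and 26 of the 34 (76.5%) lay below 0, where 55.7% of all features did. The differences were small: the median size among the 13 that passed was 0.27, or 1.21-fold, and no gene of the set changed by 1.5-fold. With 3 arrays fewer features passed whichever array was left out: 5 of the set were lower without replicate 1 or replicate 2, 6 without replicate 3 and 7 without replicate 4, where 5.99%, 4.96%, 6.58% and 7.81% of all features were lower. The split was 3 lower and 3 higher with the log ratios of the scanner software (7.09% of all features lower and 6.83% higher), and 28 lower and 1 higher with median centring (53.6% and 25.8%), which moved the median of all features by -0.16.

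**Figure D1:**
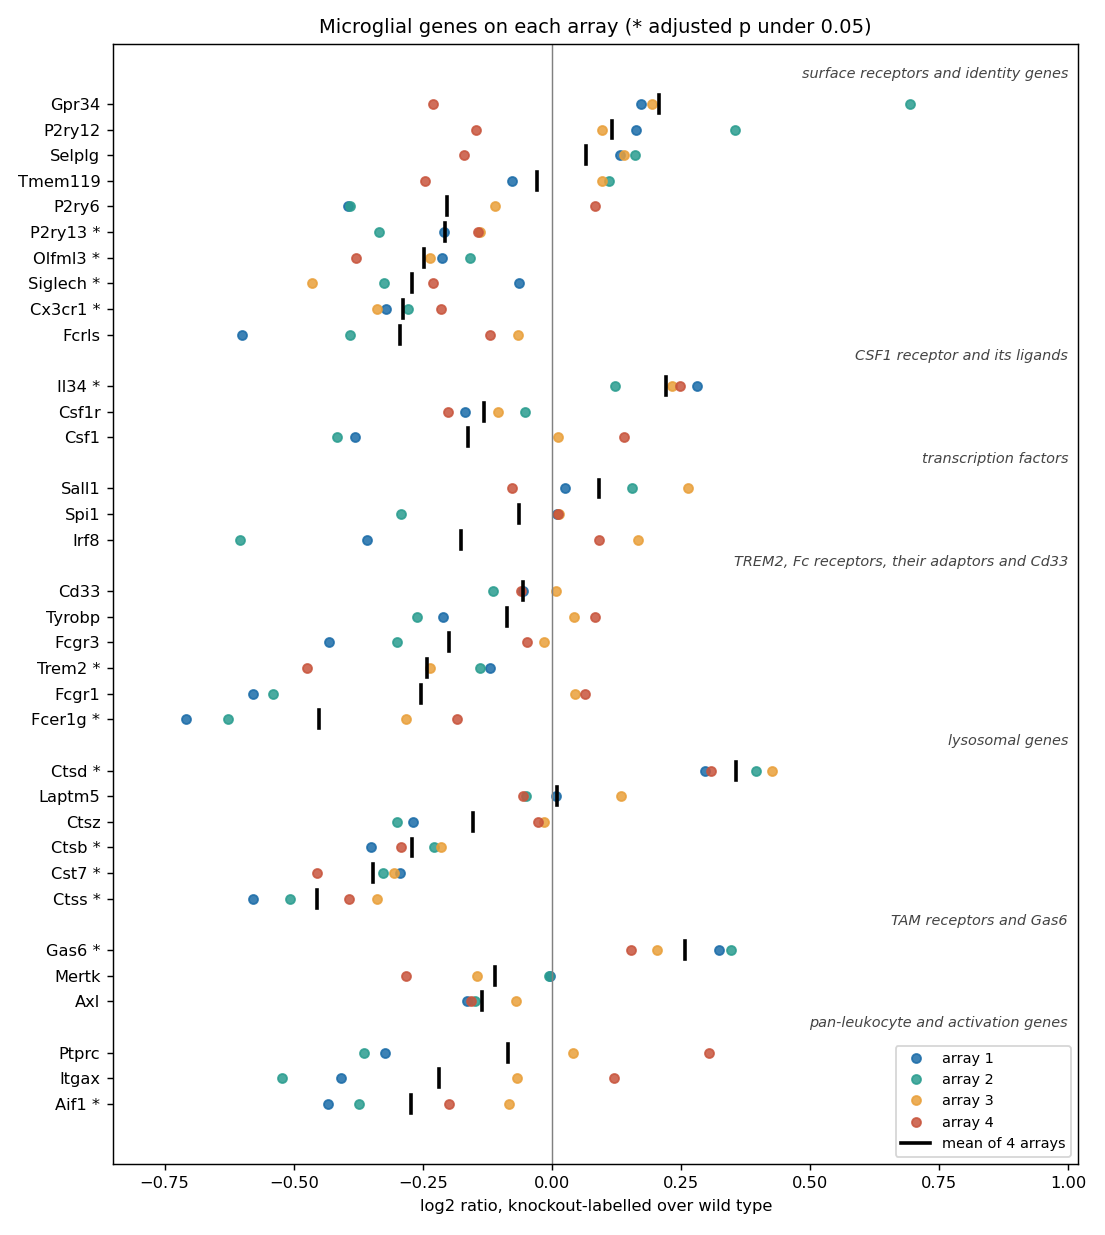
Knockout-labelled over wild-type signal as a log2 ratio (x axis) for each of the 34 microglial genes (rows, by role), with 1 point per array and a black bar at the mean of the 4 arrays; an asterisk marks an adjusted p under 0.05. Cx3cr1, Cst7, Ctsb and Ctss lay below 0 on all 4 arrays with little spread, while Irf8, Fcgr1, Ptprc and Csf1 were below 0 on arrays 1 and 2 and above 0 on arrays 3 and 4.

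To show the sequence before the start of genes that passed, the 250 bases before the transcription start of the set's genes were read from RefSeq's promoter table (build GRCm38.p6), which held 26 of the 35 genes in 31 windows. The motifs searched on both strands were GAGGAA, the core to which PU.1 and other ETS factors bind, its longer form GAGGAAGT, the PU.1-IRF composite (GGAA, any 2 bases, GAAA), the interferon regulatory factor element (GAAA, any 2 bases, GAAA) and TCACGTGA, a palindrome at the centre of the CLEAR element of lysosomal genes. Shown are Ctss and Aif1, the only genes of the set with an interferon regulatory factor element in the window; Ctsd, which rose, and has the CLEAR core; and Cx3cr1, which fell and has none of these motifs. Capitals mark GAGGAA (or its complement TTCCTC), the interferon regulatory factor element and TCACGTGA. The longer core and the composite were in no window of the set, so neither is marked.
Ctss, chr3:95526536-95526785, plus strand: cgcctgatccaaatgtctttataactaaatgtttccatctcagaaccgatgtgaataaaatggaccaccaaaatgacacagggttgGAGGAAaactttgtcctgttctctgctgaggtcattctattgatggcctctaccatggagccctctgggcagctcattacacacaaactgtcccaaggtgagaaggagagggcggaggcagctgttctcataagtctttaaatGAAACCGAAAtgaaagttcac
Aif1, chr17:35176053-35176302, minus strand: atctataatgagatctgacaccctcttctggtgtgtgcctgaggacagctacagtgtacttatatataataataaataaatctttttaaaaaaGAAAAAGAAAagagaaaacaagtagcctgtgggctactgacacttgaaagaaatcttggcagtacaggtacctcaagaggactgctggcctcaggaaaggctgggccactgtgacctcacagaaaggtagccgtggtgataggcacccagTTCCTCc
Ctsd, chr7:142387828-142388077, minus strand: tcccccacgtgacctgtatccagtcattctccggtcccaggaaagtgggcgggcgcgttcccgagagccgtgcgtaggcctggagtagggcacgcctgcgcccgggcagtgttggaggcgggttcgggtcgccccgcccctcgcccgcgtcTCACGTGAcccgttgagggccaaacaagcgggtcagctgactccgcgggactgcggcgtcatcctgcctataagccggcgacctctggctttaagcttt
Cx3cr1, chr9:120068297-120068546, minus strand: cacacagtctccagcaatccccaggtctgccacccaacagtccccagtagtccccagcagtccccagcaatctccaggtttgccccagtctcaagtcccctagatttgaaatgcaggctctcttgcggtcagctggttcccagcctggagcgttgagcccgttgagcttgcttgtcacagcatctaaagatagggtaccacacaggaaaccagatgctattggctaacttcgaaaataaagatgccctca

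GAGGAA was present for 12 of the 26 genes and in 41.9% of their windows, against 23.3% of all 32851 windows in the table; 4 of the 9 lower genes with a window had it. In Ctss it began 164 bases before the start and in Aif1 7 bases before it. The interferon regulatory factor element was in 6.45% of the set's windows and in 2.98% of all, and began 21 bases before the start of Ctss and 157 before that of Aif1. TCACGTGA was in the windows of Ctsd, which rose, and Siglech, which fell, only, 99 and 57 bases before the start, and in 0.785% of all windows. The longer core GAGGAAGT and the PU.1-IRF composite were in no window of the set, and in 2.44% and 2.30% of all. These are matches of letters in a short window and show no binding.

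Among the 10 surface receptor and identity genes, 4 fell (40%), none rose and 6 did not pass, with a median of -0.20. Of all features, 12.7% were lower and 8.63% higher. Cx3cr1, the receptor for the neuronal chemokine fractalkine, was the steadiest. Its log2 intensity was 13.79, 13.78, 13.80 and 13.84 in wild-type samples 1 to 4 and 13.47, 13.51, 13.46 and 13.63 in the knockout-labelled ones. All 4 knockout-labelled samples lay below all 4 wild-type samples, and the mean difference was -0.29 ± 0.06 (SD, n = 4; limma, adjusted p = 0.00720). The call held in all 15 alternatives run, with values from -0.72 to -0.19, although its dimmer second probe stood at -0.09 ± 0.15 and did not pass (adjusted p = 0.313 over all kept probes). The -0.72 came from median centring, where features of like intensity (12 to 14) had a median of -0.37. With that setting 53.6% of all features were lower.

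Olfml3, which encodes a secreted matrix glycoprotein, fell by 0.25 ± 0.09 (adjusted p = 0.0163), with -0.21, -0.16, -0.24 and -0.38 on the 4 arrays. Its second probe was lower still, at -0.42 ± 0.25 (adjusted p = 0.0196 over all kept probes), so both probes of this gene passed. P2ry13, a receptor for ADP, fell by 0.21 ± 0.09 (adjusted p = 0.0266). Its ratio was negative on every array, from -0.34 on array 2 to -0.14 on arrays 3 and 4. Siglech, a sialic acid-binding receptor, stood at -0.06, -0.33, -0.47 and -0.23, a mean of -0.27 ± 0.17 (adjusted p = 0.0296). The Siglech probes disagreed: the one used was among the brightest of the set (mean log2 intensity 15.6), and the dimmer one (9.90) stood at 0.33, 0.33, -0.07 and -0.23, a mean of 0.09.

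The resting-state genes did not all go one way. P2ry12, the ADP receptor that guides microglial processes to injury, stood at 0.16, 0.35, 0.10 and -0.15 (mean 0.12 ± 0.21, adjusted p = 0.306). Tmem119, a membrane protein used to tell microglia from blood-derived macrophages, stood at -0.08, 0.11, 0.10 and -0.24 (mean -0.03 ± 0.17, adjusted p = 0.785). For both genes the arrays fell on either side of 0. Gpr34, a lysophosphatidylserine receptor, had the widest spread of the set, from -0.23 on array 4 to 0.69 on array 2 (mean 0.21 ± 0.38, adjusted p = 0.276). Selplg, the P-selectin ligand, was near 0.14 on arrays 1 to 3 and at -0.17 on array 4 (mean 0.07, adjusted p = 0.491), and its second probe stood at -0.08.

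P2ry6, the UDP receptor for phagocytosis, and Fcrls, an Fc receptor-like scavenger receptor, were lower on average without passing. P2ry6 stood at -0.40, -0.39, -0.11 and 0.08 (mean -0.20 ± 0.23, adjusted p = 0.126). Fcrls stood at -0.60, -0.39, -0.07 and -0.12 (mean -0.29 ± 0.25, adjusted p = 0.0538). In Fcrls the 4 knockout-labelled levels (10.96, 11.27, 11.51 and 11.41) all lay below the 4 wild-type levels (11.55, 11.66, 11.58 and 11.53). Whether Cx3cr1 and P2ry12 differed from each other in their response was not tested. The calls of P2ry13 and Siglech were lost when single arrays were left out (any of the 4 for P2ry13, with values of -0.23 to -0.16; replicate 2, 3 or 4 for Siglech, at -0.28 to -0.21), as was that of Olfml3 without replicate 1, 3 or 4 (-0.26 to -0.20); over the 15 alternatives their largest adjusted p-values were 0.237, 0.409 and 0.171.

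**Figure D2:**
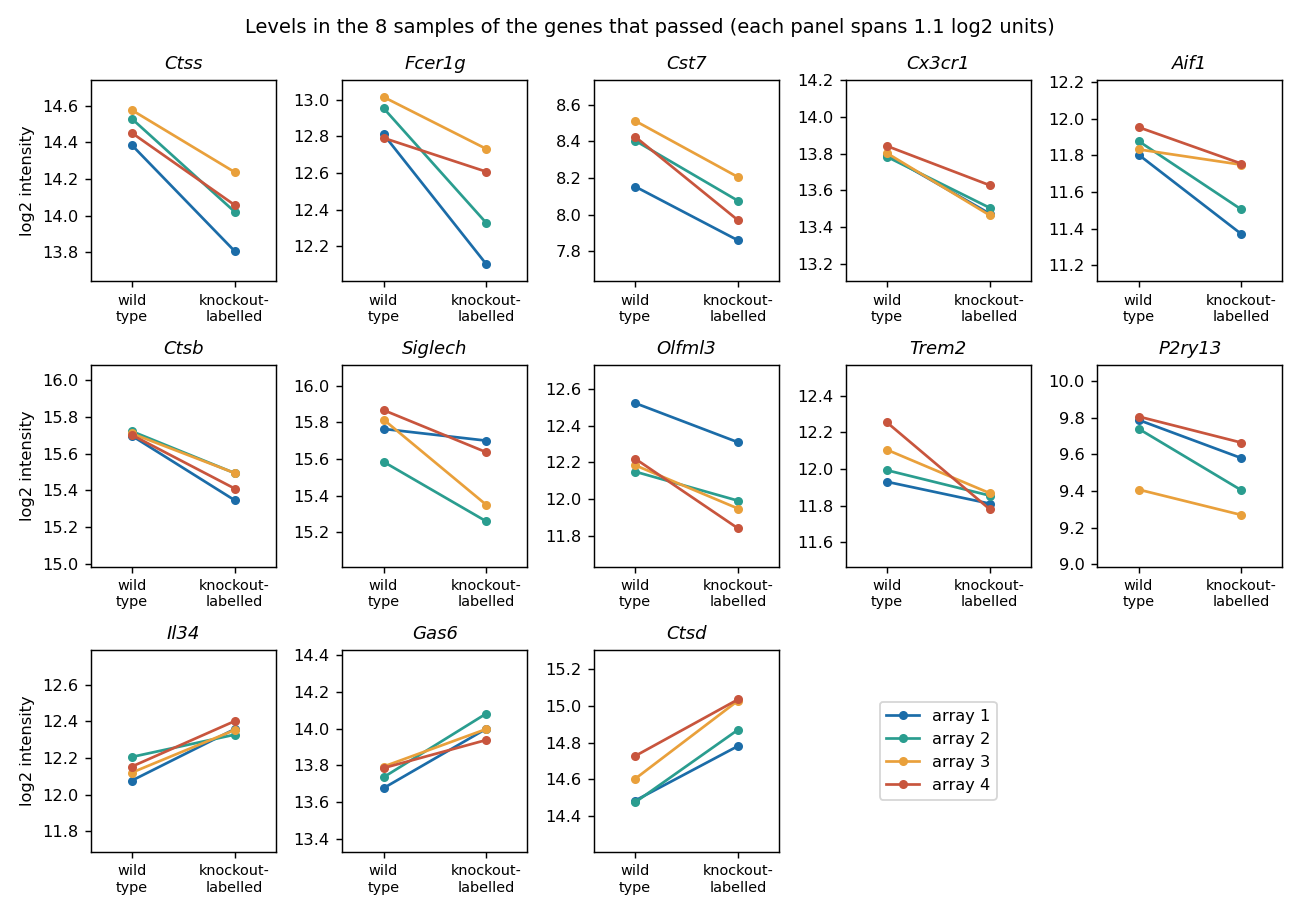
Normalized log2 intensity (y axis, each panel spanning 1.1 units) of the 13 genes that passed, in the wild-type and the knockout-labelled sample of each array, joined by a line. Every line falls for the 10 lower genes and rises for Il34, Gas6 and Ctsd (which turn negative when arrays are only median-centred), and the 2 groups do not overlap for Ctss, Fcer1g, Cx3cr1, Aif1, Ctsb, Trem2, Il34, Gas6 and Ctsd.

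Of the CSF1 receptor and its 2 ligands, 1 gene rose and none fell, where 8.63% of all features were higher and 12.7% lower. Il34, the ligand made mainly by neurons, stood at 12.36, 12.33, 12.35 and 12.40 in the knockout-labelled samples and at 12.08, 12.21, 12.12 and 12.15 in the wild-type ones. The groups did not overlap, and Il34 rose by 0.22 ± 0.07 (adjusted p = 0.0170). Csf1r stood at -0.17, -0.05, -0.10 and -0.20, below 0 on every array but short of the threshold (mean -0.13 ± 0.07, adjusted p = 0.0736); its other 2 probes stood at -0.07 each. Csf1 was chosen by its brightest probe, which stood at -0.38, -0.42, 0.01 and 0.14 (mean -0.16 ± 0.28, adjusted p = 0.267). The other 2 Csf1 probes, on another transcript accession, were both lower on all 4 arrays. They stood at -0.57 ± 0.21 and -0.53 ± 0.31 (adjusted p = 0.00516 and 0.0152 over all kept probes, of which 11.7% were lower). The direction of Il34 turned to -0.12 with median centring in place of loess, where features of like intensity (12 to 14) had a median of -0.37, and its call was lost without replicate 1, 3 or 4 (0.20, 0.22 and 0.21; adjusted p up to 0.0640 over the alternatives).

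None of the 3 transcription factor genes passed, against 21.3% of all features. Irf8, which sets the response of microglia to interferon and injury, stood at -0.36, -0.60, 0.17 and 0.09 (mean -0.18 ± 0.37, adjusted p = 0.338). It was lower in the knockout-labelled sample of arrays 1 and 2 and higher in that of arrays 3 and 4. Spi1, which encodes PU.1, was the dimmest gene of the set (mean log2 intensity 7.03), with -0.29 on array 2 and 0.01 on each of the others (adjusted p = 0.489). Sall1, which maintains the resting state, stood at 0.02, 0.15, 0.26 and -0.08 (mean 0.09 ± 0.15, adjusted p = 0.316).

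All 6 genes of TREM2, the Fc receptors, their adaptors and Cd33 had means below 0, where 55.7% of all features did, and 2 of the 6 fell, where 12.7% of all features did. Fcer1g, the signalling chain shared by Fc receptors, had one of the largest differences of the set. Its log2 intensity was 12.81, 12.95, 13.02 and 12.79 in the wild-type samples and 12.10, 12.33, 12.73 and 12.61 in the knockout-labelled ones. The groups did not overlap, and the mean was -0.45 ± 0.26 (adjusted p = 0.0168), with -0.71 and -0.63 on arrays 1 and 2 and -0.28 and -0.18 on arrays 3 and 4. Trem2, a lipid-sensing receptor of phagocytes, had the opposite order of arrays, at -0.12, -0.14, -0.24 and -0.47 (mean -0.24 ± 0.16, adjusted p = 0.0386). Its partner Tyrobp did not pass, at -0.21, -0.26, 0.04 and 0.08 (mean -0.09 ± 0.18, adjusted p = 0.393).

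The Fc receptor genes Fcgr1 and Fcgr3, which bind immunoglobulin G, followed Fcer1g in being lowest on arrays 1 and 2. Fcgr1 stood at -0.58, -0.54, 0.04 and 0.07 (mean -0.25 ± 0.36, adjusted p = 0.173) and Fcgr3 at -0.43, -0.30, -0.02 and -0.05 (mean -0.20 ± 0.20, adjusted p = 0.0997). Neither passed. Cd33, an inhibitory sialic acid receptor, stood close to 0, between -0.11 and 0.01 (adjusted p = 0.372). The call of Fcer1g was lost without replicate 1 or replicate 2 (-0.36 and -0.39; adjusted p up to 0.0687 over the alternatives). That of Trem2 was lost without any one of the 4 arrays (-0.28 to -0.16; up to 0.0977).

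The lysosomal genes went both ways: of 6 measured, 3 fell (50%), 1 rose (16.7%) and 2 did not pass. The shares of all features were 12.7% lower and 8.63% higher. Ctss, a cysteine protease of antigen processing, had the lowest mean of the set, level with that of Fcer1g. Its log2 intensity was 14.39, 14.53, 14.58 and 14.45 in the wild-type samples and 13.81, 14.02, 14.24 and 14.06 in the knockout-labelled ones, without overlap. The mean ratio was -0.45 ± 0.11, or 1.37-fold lower (adjusted p = 0.00329), and the call held in all 15 alternatives, from -0.94 to -0.41. The -0.94 came from median centring, where features of like intensity (14 to 15) had a median of -0.47. With that setting 53.6% of all features were lower.

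Cst7, an inhibitor of cysteine cathepsins that is induced in activated microglia, fell by 0.35 ± 0.07 (adjusted p = 0.00501), with -0.29, -0.33, -0.31 and -0.45. Ctsb, the cysteine protease cathepsin B, fell by 0.27 ± 0.06 (adjusted p = 0.00903), with -0.35, -0.23, -0.22 and -0.29. Both were lower on every array by a similar amount. Ctsb lies on chromosome 14, the chromosome of Ndrg2, and is the only gene of the set there. It and Siglech were the brightest genes of the set, at mean log2 intensities of 15 to 16. The 724 features of that class had a median of -0.01, with 16.3% lower and 13.7% higher. With the scanner software's log ratios neither Cst7 (-0.36) nor Ctsb (-0.14) passed (adjusted p = 0.0525 and 0.122, the largest over their 15 alternatives).

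Ctsd, the aspartic protease cathepsin D, rose most among the 3 higher genes. It stood at 0.30, 0.40, 0.43 and 0.31, a mean of 0.36 ± 0.06 or 1.28-fold (adjusted p = 0.00402). The knockout-labelled levels (14.78, 14.87, 15.03 and 15.04) lay above all wild-type levels (14.48, 14.47, 14.60 and 14.73), and a second probe also rose, by 0.22 ± 0.13 (adjusted p = 0.0328 over all kept probes, of which 9.29% were higher). With median centring in place of loess Ctsd turned to -0.18, where features of like intensity (14 to 15) stood at -0.47. Ctsz, the carboxypeptidase cathepsin Z, stood at -0.27, -0.30, -0.02 and -0.03 (mean -0.15 ± 0.15, adjusted p = 0.121), and Laptm5, a lysosomal membrane protein of blood cells, at 0.01 ± 0.09 (adjusted p = 0.907), its second probe at 0.04.

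Of the TAM receptors, which recognise apoptotic cells through a bridging ligand, and that ligand Gas6, the ligand rose and neither receptor passed. In either direction 21.3% of all features passed. Gas6 stood at 13.999, 14.08, 13.997 and 13.94 in the knockout-labelled samples and 13.68, 13.73, 13.79 and 13.78 in the wild-type ones. The groups did not overlap, and the rise was 0.26 ± 0.09 (adjusted p = 0.0142). Axl stood at -0.16, -0.15, -0.07 and -0.16 (mean -0.13 ± 0.04, adjusted p = 0.0566), below 0 on all arrays. Mertk was within 0.01 of 0 on arrays 1 and 2 and at -0.15 and -0.28 on arrays 3 and 4 (mean -0.11 ± 0.13, adjusted p = 0.210). Gas6 turned to -0.19 with median centring in place of loess, where features of like intensity stood at -0.37, and its call was lost without replicate 1 or replicate 2 (0.23 each; adjusted p up to 0.0593).

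Of the 3 pan-leukocyte and activation genes 1 fell, where 12.7% of all features were lower. Aif1, which encodes the actin-binding protein IBA1 of activated microglia and macrophages, stood at -0.43, -0.37, -0.08 and -0.20 (mean -0.27 ± 0.16, adjusted p = 0.0267). Its levels did not overlap, with a highest knockout-labelled level of 11.76 and a lowest wild-type level of 11.80. Itgax, an integrin of dendritic cells and activated microglia, stood at -0.41, -0.52, -0.07 and 0.12 (mean -0.22 ± 0.30, adjusted p = 0.168). Ptprc, the common leukocyte phosphatase CD45, stood at -0.32, -0.36, 0.04 and 0.30 (mean -0.09 ± 0.32, adjusted p = 0.600). In both, arrays 1 and 2 were low and array 4 was above 0. The call of Aif1 was lost without replicate 1 or replicate 2 (-0.22 and -0.24; adjusted p up to 0.0994).

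**Figure D3:**
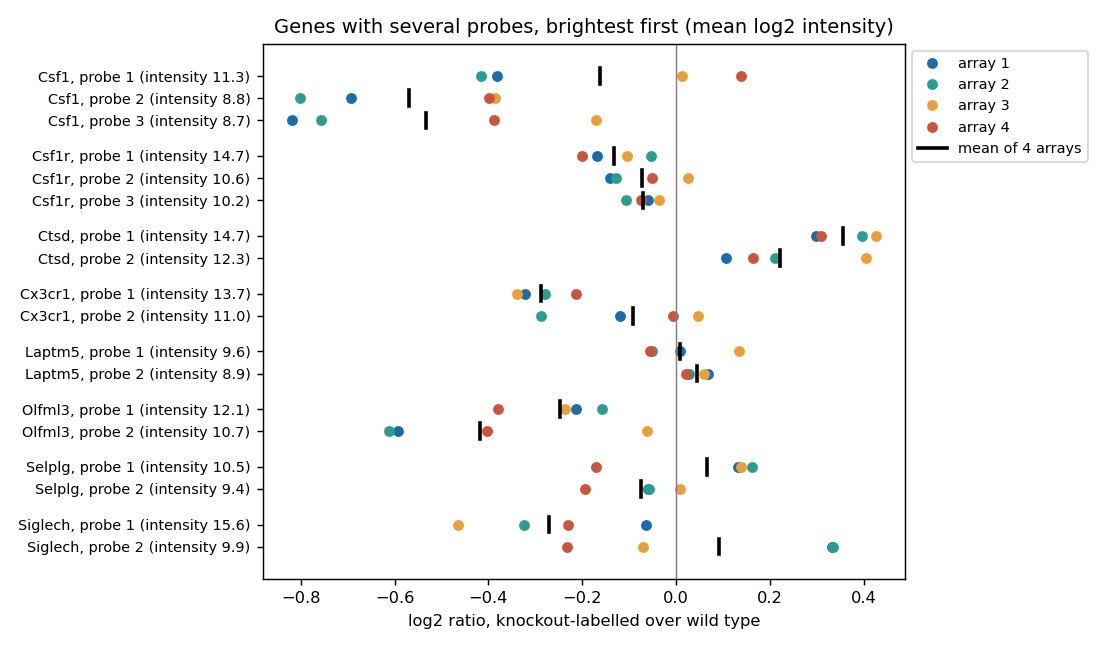
Knockout-labelled over wild-type signal as a log2 ratio (x axis) for every kept probe of the 8 genes with more than 1, brightest probe first; points are arrays and black bars the mean of the 4. Both probes of Olfml3 and of Ctsd lie on one side of 0, the dimmer probes of Csf1 lie further below 0 than the brightest, and the 2 Siglech probes have means on opposite sides.

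Over the 8 genes with further probes, 8 of 10 other probes had the sign of the brightest one, the exceptions being those of Selplg and Siglech. Across the set, 16 genes were below 0 on all 4 arrays and 3 above 0 on all 4. Among all features, 43.8% had the same sign on all arrays, with both directions counted together. Their share in each direction was not counted. The 4 knockout-labelled levels all lay below the 4 wild-type levels for 8 genes, where 10.8% of all features did, and above them for 3, where 9.10% did.

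The arrays differed in how far the set was lowered. The set's median was -0.21, -0.27, -0.02 and -0.13 on arrays 1 to 4, and 25, 26, 18 and 23 of the 34 genes lay below 0, while the median of all features was -0.02 on each array. Several lists of markers of other cells were also lowest on arrays 1 and 2. Monocyte and macrophage markers had medians of -0.39, -0.47, -0.15 and 0.07, neutrophil markers of -0.23, -0.29, -0.15 and 0.04, and erythrocyte genes of -0.48, -0.65, -0.14 and 0.15. Endothelial markers had medians of -0.32, -0.17, -0.04 and 0.01, and 1 of 7 fell (Ly6c1, by 0.39). That is 14.3%, near the 12.7% of all features. Of the monocyte and macrophage markers 3 of 13 fell (Ms4a4c by 0.49, Adgre1 by 0.39 and Itgam by 0.24), none rose and 10 did not pass. That is 23.1% lower against 12.7% of all features. Adgre1 and Itgam are macrophage genes not limited to blood-derived cells, so their calls cannot be assigned to monocytes. All 12 neutrophil markers had means below 0, against 55.7% of all features, and 3 fell (25.0%), namely Mcemp1 by 0.42, Csf3r by 0.25 and Elane by 0.22. The summed level of the 13 monocyte markers (log2 of the sum of intensities) was 15.96 to 16.18 in the knockout-labelled samples and 16.31 to 16.49 in the wild-type ones. That of the 12 neutrophil markers was 15.50 to 15.74 against 15.84 to 16.04, and that of the 3 erythrocyte genes 15.87 to 16.66 against 16.43 to 16.70. The sums of astrocyte markers (17.30 to 17.49 against 17.65 to 17.74) and of disease-associated microglial genes (18.51 to 18.68 against 18.86 to 18.90) did not overlap between the groups either, as those of monocyte and neutrophil markers did not. Such sums weigh bright probes most, which here included those of Csf3r (mean log2 intensity 15.6) for neutrophils and of Itgam (14.9) and Ms4a4c (14.6) for monocytes. They also included Aldoc (16.8) for astrocytes and Fth1 (17.3) for disease-associated microglial genes. Of the 322 features at 16 or more, 54.7% were lower. For single features, 10.8% of all had the 4 knockout-labelled levels below the 4 wild-type levels.

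Of the defining markers of neutrophils, Ngp and Ltf were well above background on 0 and 1 of the 4 arrays, while S100a8 and S100a9 stood at -0.68 and -0.54 without passing. Ccr2, which marks blood monocytes, stood at -0.35, -0.49, 0.13 and 0.60 on arrays 1 to 4 (mean -0.03 ± 0.50) and did not pass. Of the border-associated macrophage markers none of 8 passed (median -0.09), against 21.3% of all features. Of 9 lymphocyte and natural killer cell markers 1 (Nkg7, by 0.23) fell, which is 11.1% against 12.7% of all features. Cd3g, Cd8a and Ncr1 were not above background on any array. Neuronal markers had a median of 0.04, within 0.06 of 0 on each array, and oligodendrocyte markers of -0.10, -0.25, 0.26 and 0.42 on arrays 1 to 4. Among the 10 neuronal markers 1 rose (Nefm, 0.26) and 1 fell (Gad2, -0.24), 10% each. Among the 9 oligodendrocyte markers 2 rose (Mbp, 0.29, and Olig2, 0.16), or 22.2%, and none fell. The shares of all features were 8.63% higher and 12.7% lower. Astrocyte markers had medians of -0.21, -0.21, -0.06 and -0.16, and 8 of 9 had means below 0. Of the 9, 3 fell (33.3%, a share above the 29.4% of the microglial set), namely Aqp4 by 0.41, Aldoc by 0.39 and Slc1a2 by 0.30, and none rose. Aldoc was among the 322 brightest features (mean log2 intensity 16 or more), of which 54.7% were lower. The part that other cell types have in the microglial values was not tested.

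**Figure D4:**
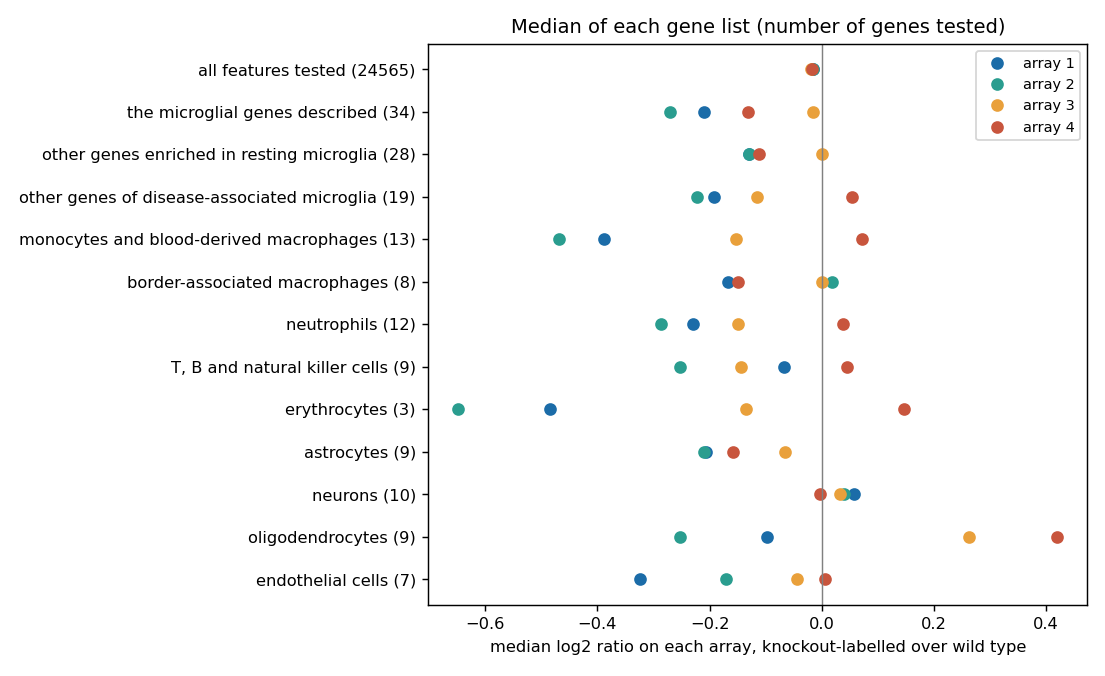
Median log2 ratio on each array (x axis, 1 point per array) of the 34 microglial genes, of 2 lists of other microglial genes and of markers of other cell types, with the number of genes tested in brackets. All features have medians near -0.02 on every array, whereas monocyte, neutrophil and erythrocyte lists are lowest on arrays 1 and 2. The median of the neuronal list stays near 0, although single neuronal markers passed in either direction.

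Other genes of microglia, listed from general knowledge but with earlier results of these data known, had more lower than higher calls. They are therefore no independent check of the set. Of 28 measured genes enriched in resting microglia (of 29; Bin2 matched no probe), 7 fell, 1 rose and 20 did not pass, with a median of -0.08. The lowest were Slco2b1, an organic anion transporter, at -0.34 ± 0.12, the cytokine gene Tgfb1 at -0.34 ± 0.18 and the folate transporter gene Slc46a1 at -0.28 ± 0.12. Vsir, an inhibitory checkpoint gene, rose by 0.24 ± 0.13.

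Of 19 measured genes of disease-associated microglia (of 20; Clec7a matched no probe), 5 fell, 1 rose and 13 did not pass, with a median of -0.16. The lowest were Fth1, the ferritin heavy chain, at -0.63 ± 0.12, the chemokine gene Ccl6 at -0.54 ± 0.39 and the lipase gene Lpl at -0.48 ± 0.25. Fth1 was among the 322 brightest features (mean log2 intensity 16 or more), which had a median of -0.19 and of which 54.7% were lower. Spp1, which encodes osteopontin, had a mean near that of Fth1, -0.61 ± 0.63, but its spread was wider and it did not pass (adjusted p = 0.0730). Serpine2, a protease inhibitor gene, rose by 0.18 ± 0.07. The genes that fell were 25.0% and 26.3% of those measured in the 2 lists, against 12.7% of all features.

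**Figure D5:**
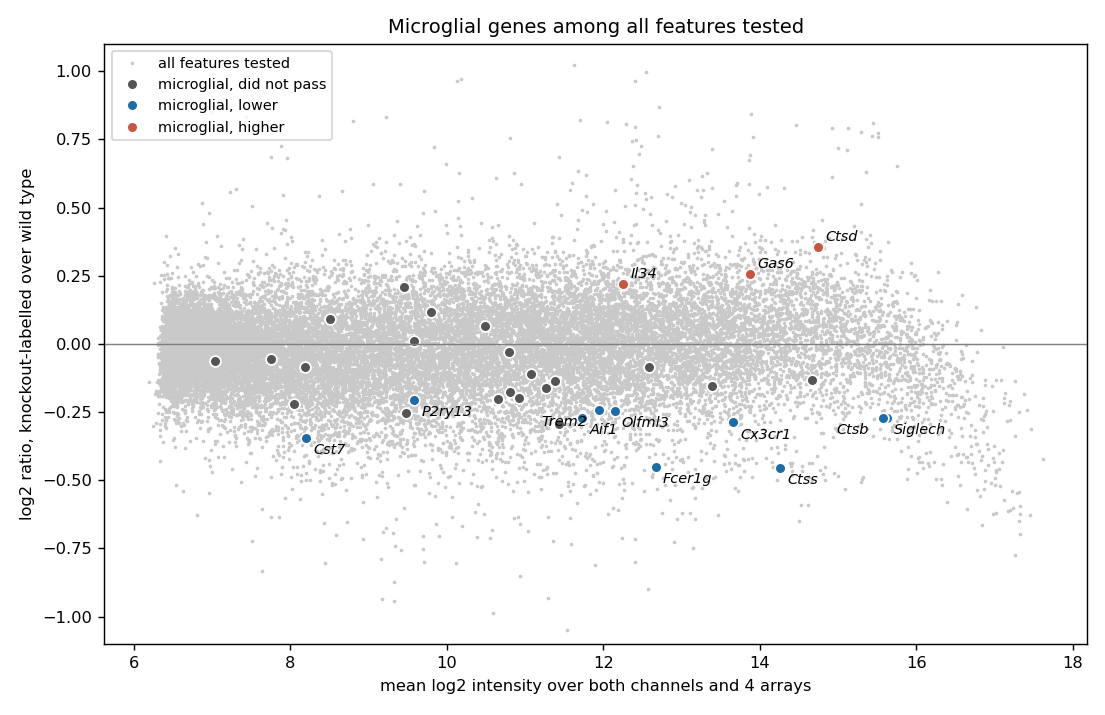
Mean log2 intensity over both channels (x axis) against the knockout-labelled to wild-type log2 ratio (y axis) for all 24565 features tested (grey; 15 beyond the axis limits of 1.1 are not drawn) and the 34 microglial genes (coloured by call). The 10 lower genes span intensities from 8.20 (Cst7) to 15.6 (Siglech). Features at 16 or more, where no microglial gene lies, had a median of -0.19. Those at 15 to 16, the class of Siglech and Ctsb, had a median of -0.01, with 16.3% lower and 13.7% higher.

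The brightness of a probe moved with its ratio in part of the range. Features at intensities of 14 to 15, the class of Ctss, Csf1r and Ctsd, had a median of 0.04, and 10.6% of them were lower and 22.0% higher. Those at 12 to 14, the class of Cx3cr1, Olfml3, Fcer1g, Il34 and Gas6, had a median of 0.01 with 13.5% lower and 15.4% higher. Those at 8 to 10, the class of Cst7 and P2ry13, had a median of -0.04 with 16.2% lower. Those at 15 to 16, the class of Siglech and Ctsb, had a median of -0.01 with 16.3% lower and 13.7% higher.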

How the data were processed

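RNA of 8 cortex samples was measured on 4 two-colour Agilent mouse arrays, all on 1 slide, which leaves no array batch to compare. Per the file headers, the deposited intensity values were read with Feature Extraction 11.0.1.1 (the submitters' processing notes name 10.7.3.1); the deposited log10 ratios are Cy5 over Cy3 of its processed signals, and the flags are other values, 0 or 1 per spot. The deposited log2 values of the series matrix equalled log2 of processed Cy5 over Cy3 to within 0.001 for all 39030 probes with 1 spot, which gives their direction as wild type over knockout (column medians -0.05, -0.06, -0.04 and -0.03); no further centring was found, and they were not used further. Array annotation is on mm9, per the file headers.

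Median spot and background signals were corrected with normexp (offset 50) and normalized by loess within each array, controls at weight 0, in limma 3.58.1 (R 4.3.3). Outlier spots (139 to 186 per array) and controls were left out and spots of 1 probe averaged. A probe was kept when well above background on at least 3 arrays in one channel. Symbols came from RefSeq genes of GRCm38.p6 (27427 probes, 69.6%); the brightest kept probe stood for a gene. With lmFit and eBayes, the mean ratio of the 4 arrays was tested against 0, and p-values were adjusted by Benjamini-Hochberg over 24565 features; each array is the block that pairs its 2 samples. Levels per sample are log2 intensities after loess and Aquantile. The number of arrays limits the precision. Alternatives covered background, normalization, filter, outliers, probe choice, moderation, the block and single arrays left out; the fit over every kept probe was chosen after seeing the data. Only the fit and the adjustment were run on simulated ratios, not the background correction, normalization, filter or choice of probes. The genes and lists were chosen with earlier results of these data known. The text names all 35 genes, up to 3 lowest and 3 highest that passed in each list of other microglial genes, and, of other cell types, defining markers and up to 2 with the smallest p each. Spp1, Itgam, Csf3r and Aqp4 were named after their values were seen. The values of 1 gene of the resting list are not reported here.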

Additional observations from a re-analysis of the deposited data

Results flagged for a closer look

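For 3 of the 34 microglial genes 1 array lay far from the rest: its distance to the next array, divided by the range of all 4, exceeded Dixon's critical value. Chance gives this in about 1 of 20 groups. Spi1 had such a ratio of 0.986, with array 2 at -0.29 against 0.01 on the others. Selplg had 0.909, with array 4 at -0.17 against 0.13, 0.16 and 0.14. Axl had 0.8294, with array 3 at -0.07 against -0.16, -0.15 and -0.16. Of 19 list medians, 1 was marked in the same way: that of other genes enriched in resting microglia, at 0.853, with array 3 near 0 against -0.13, -0.13 and -0.11.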

How the results depend on the processing

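Of the 13 genes that passed, Cx3cr1 and Ctss kept their calls in all 15 alternatives. Under the log ratios of the scanner software, 3 of the set were lower (Cx3cr1, Fcer1g and Ctss), and 1741 of all features. With no replicate block, that is, without pairing the 2 samples of an array, 5 were lower, and 1283 of all features were higher and 1581 lower. Without single replicates 5 to 7 of the set were lower and 1 to 2 higher, and 808 to 1264 of all features were higher and 1219 to 1918 lower; without replicate 1, Ctsd was the only higher gene. Median centring in place of loess moved the median of all features by -0.16, the set's median to -0.44, and the calls to 28 lower and 1 higher (Spi1) of the set and to 13177 lower and 6329 higher of all. There the values of Ctsd (-0.18), Gas6 (-0.19), Il34 (-0.12), Selplg (-0.20), Laptm5 (-0.20), P2ry12 (-0.11) and Sall1 (-0.0042) turned negative, of which the first 5 passed as lower, and those of Spi1 (0.24) and Cd33 (0.0027) positive. Features under an intensity of 8, the class of Spi1 and Cd33, had a median of 0.34 there, and those at 15 to 16 of -0.62. Selplg also turned with the mean of its probes (-0.0053). Leaving out 1 replicate gave -0.090 to 0.012 for Spi1 and -0.22 to 0.0069 for Ptprc (both turned without replicate 2), -0.033 to 0.031 for Laptm5 (turned without replicate 3) and -0.075 to 0.043 for Tmem119 (turned without replicate 4), none of which passed. The cause of these changes was not tested, except that leaving out an array leaves 3. The other alternatives (no background correction, offset 10, no filter or a stricter one, outlier spots kept, the mean of all probes, another moderation, every probe as a feature) left 8 to 12 of the set lower and 3 higher. Signals below background limited no gene of the set.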
